A study of Mus musculus with 11 samples.

Results

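Chemokine receptors are G protein-coupled receptors that let a leukocyte follow a gradient of chemokine, a small secreted protein, into or through a tissue. The 9 receptor genes described here are Ccr2, Ccr6, Ccr7, Ccr9, Cxcr3, Cxcr4, Cxcr5, Cxcr6 and Cx3cr1. They were chosen by gene name from a table of 52636 genes, each name matched 1 row, and all 9 passed the filter on low counts that left 13735 genes for testing. In T cells, CCR7 guides entry into lymph nodes and the T cell zone of the spleen, and its loss together with a gain of inflammatory receptors is a textbook mark of antigen experience. Circulating memory CD8 T cells are often sorted by such receptors: those with CCR7 recirculate through lymphoid organs, and those with high CX3CR1 stay largely in blood and spleen and carry cytotoxic granules.

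Bulk RNA was sequenced from splenic CD8 T cells of C57BL/6 mice, purified by flow cytometry. There were 3 naive libraries of CD44lo cells, with a time entry of 6 to 8 weeks whose meaning is not stated. The 4 CD45RBhi and the 4 CD45RBlo libraries came from memory cells that bound a tetramer labelled Kb NP396, with a peptide of the nucleoprotein of lymphocytic choriomeningitis virus (LCMV). Those mice had received 200000 pfu of LCMV Armstrong into the peritoneum, a strain that is cleared after an acute infection, and cells were sorted 42 to 45 days later. By the labels, the CD45RBhi and CD45RBlo groups differ in the sort on CD45RB, a splice form of the phosphatase CD45. The protocol text is the same for all 3 groups, so the labels do not settle whether naive cells came from infected mice, and ages are not given. Nor do they say that replicates were separate animals or how many animals were pooled, so p-values reflect only how far these libraries spread, which may be technical. All groups are wild type, and splenic cells specific for 1 viral peptide are a model of circulating, not of tissue, memory.

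Library totals ran from 18024793 to 23151297 counts. Levels are given as CPM, counts scaled to a common library size after TMM adjustment for differences in make-up, and 3 counts, the upper limit for a gene with 0 counts by counting error alone, were 0.130 to 0.170 CPM. Of the genes that define the sorted cells, Cd3e, Cd8a and Cd8b1 averaged 980 to 2843 CPM in every group, and Cd4 had at most 9 counts in any library. Mean Cd44 was 14.6 CPM in naive cells against 256 and 220 in CD45RBhi and CD45RBlo. Fewer cells with a transcript and less transcript per cell cannot be told apart in such libraries.

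CCR7 binds CCL19 and CCL21. Ccr7 was at 1640, 1648 and 1588 CPM in the naive libraries. In CD45RBhi replicates 1 to 4 it was at 90.9, 204.6, 151 and 169 CPM, and in CD45RBlo replicates 1 to 4 at 73.2, 155, 103 and 125 CPM. All naive libraries lay far above all memory libraries, while the memory groups overlapped. Ccr7 fell 10.6-fold in CD45RBhi (log2 fold change -3.40 ± 0.263, SE, adjusted p = 4.30e-07) and 14.3-fold in CD45RBlo (-3.83 ± 0.267, adjusted p = 1.50e-07), by edgeR's quasi-likelihood test with adjustment over all genes tested.

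CCR9, the receptor for CCL25, directs lymphocytes to the small intestine and is carried by thymocytes and naive CD8 T cells. Ccr9 was at 191, 161 and 154 CPM in naive libraries. It was at 1.96, 1.22, 0.348 and 0.942 CPM in CD45RBhi replicates 1 to 4 and at 3.17, 2.47, 1.07 and 0.783 CPM in the CD45RBlo ones, from 7 to 56 counts per library. No memory library came near the naive level, and the memory groups overlapped. The difference was 150-fold in CD45RBhi (log2 fold change -7.23 ± 0.424, adjusted p = 3.35e-08) and 90.8-fold in CD45RBlo (-6.50 ± 0.404, adjusted p = 5.23e-08). Ccr7 and Ccr9 were the 2 receptors that fell, in both comparisons. On GENCODE M21, 18.8% of the annotated exon bases of Ccr9 are shared with a transcript on the opposite strand. Strandedness of the counting is not given in the sources used here, so reads of the pair cannot be told apart.

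CXCR3, the receptor for CXCL9, CXCL10 and CXCL11, brings effector and memory T cells to sites of interferon gamma. Cxcr3 was at 39.8, 38.3 and 46.8 CPM in naive libraries, at 841, 1074, 986 and 1026 CPM in CD45RBhi replicates 1 to 4, and at 716, 921, 842 and 835 CPM in CD45RBlo replicates 1 to 4. Every memory library was far above every naive one, with little spread within a group. Cxcr3 rose 23.6-fold in CD45RBhi (log2 fold change 4.56 ± 0.131, adjusted p = 4.93e-11) and 19.9-fold in CD45RBlo (4.31 ± 0.129, adjusted p = 6.77e-11). CXCR6 binds the membrane-bound chemokine CXCL16 and is used by CD8 T cells that patrol the liver. Cxcr6 was already well expressed in naive libraries, at 310, 247 and 288 CPM. It was at 1493, 1119, 1161 and 1214 CPM in CD45RBhi replicates 1 to 4 and at 1458, 1236, 1162 and 1330 CPM in the CD45RBlo replicates. The rise was 4.43-fold in CD45RBhi (log2 fold change 2.15 ± 0.124, adjusted p = 2.84e-08) and 4.60-fold in CD45RBlo (2.20 ± 0.124, adjusted p = 2.03e-08).

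CX3CR1 binds fractalkine (CX3CL1) on endothelium, and CCR2 binds CCL2 and draws monocytes and activated T cells to inflamed tissue. Both genes were near 0 in naive libraries. Cx3cr1 had 42, 25 and 29 counts there, or 1.92, 1.30 and 1.43 CPM. It was at 769, 467, 562 and 520 CPM in CD45RBhi replicates 1 to 4 and at 988, 768, 743 and 774 CPM in CD45RBlo replicates 1 to 4. Cx3cr1 was thus 371-fold higher in CD45RBhi than in naive libraries (log2 fold change 8.54 ± 0.25, adjusted p = 5.56e-11) and 524-fold higher in CD45RBlo (9.03 ± 0.254, adjusted p = 3.65e-11). Ccr2 had 14, 7 and 5 counts in naive libraries, or 0.640, 0.363 and 0.246 CPM. It reached 398, 219, 342 and 295 CPM in CD45RBhi replicates 1 to 4 and 364, 204, 332 and 334 CPM in the CD45RBlo ones. Its rise was the largest of the 9 genes: 732-fold in CD45RBhi (log2 fold change 9.52 ± 0.378, adjusted p = 8.87e-10) and 721-fold in CD45RBlo (9.49 ± 0.378, adjusted p = 9.06e-10).

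Monocytes and macrophages also express Ccr2 and Cx3cr1, so their markers were read beside them. Of 14 such markers, 13 without Ly6c2, which memory CD8 T cells make too, summed to 38.6 to 63.3 CPM in the 3 naive libraries, 40.8 to 48.0 CPM in the 4 CD45RBhi and 35.9 to 51.0 CPM in the 4 CD45RBlo libraries. Of the 14, 9 were tested, and in each memory group Cd68, Itgam and Ly6c2 passed as higher and 5 as lower. Ly6c2 itself rose, from a mean of 348 CPM in naive cells to 2086 and 1730 CPM (log2 fold changes 2.58 and 2.31, adjusted p = 2.84e-08 and 6.34e-08). The markers Csf1r and Lyz2 averaged 14.0 and 17.3 CPM in naive libraries but 0.611 and 0.517 CPM in CD45RBhi and 1.60 and 1.04 CPM in CD45RBlo. S100a9 had 0 counts everywhere. Mpeg1 had 0 counts in CD45RBhi libraries and at most 5 in CD45RBlo ones. Mean Cd68, in contrast, was 3.65 CPM in naive and 31.8 and 27.5 CPM in the memory groups, and mean Itgam 0.727 against 5.33 and 6.58 CPM. Without Ly6c2 the sum was thus mostly Lyz2 and Csf1r in naive libraries and mostly Cd68 in memory libraries. Similar sums therefore do not compare the same genes. The part of monocytes and macrophages in the Ccr2 and Cx3cr1 values was not tested. NK cells express Cx3cr1 as well. The 8 NK markers summed to 42.0 to 50.6 CPM in naive, 273 to 445 CPM in CD45RBhi and 277 to 427 CPM in CD45RBlo. Of 7 tested, 5 rose in each memory group (Klrb1c, Eomes, Klra4, Klra7 and Klra8), genes that CD8 T cells can also make. Klrb1c and Eomes made up most of the memory sums, and Klra4, Klra7 and Klra8 averaged at most 1.42 CPM. Tyrobp and Fcer1g passed in neither group. Their means were 2.04 and 2.00 CPM in naive, 2.30 and 3.21 CPM in CD45RBhi, and 1.58 and 1.73 CPM in CD45RBlo. The NK receptor gene Ncr1 had at most 2 counts in any library. Of 9 dendritic cell markers, which include Ccr9 and Xcr1, 4 were tested: Itgax and Xcr1 rose and Ccr9 fell in both memory groups, and Zbtb46 did not pass. Their sum was 160 to 194 CPM in naive, 88.4 to 250.4 CPM in CD45RBhi and 69.9 to 172 CPM in CD45RBlo libraries. The naive sum was mostly Ccr9, itself a receptor studied here (mean 168 CPM), and the memory sums were mostly Itgax. The sums therefore do not compare the same genes between naive and memory libraries. Mean Itgax went from 0.732 CPM in naive to 166 and 123 CPM, while Siglech had 0 counts in every memory library and Clec9a at most 3 counts in any library. Erythroid and platelet markers summed to 240.5 to 528 CPM in naive libraries, 0.304 to 2.09 CPM in CD45RBhi and 0.242 to 25.2 CPM in CD45RBlo, and 8 of the 8 tested fell in both. The part of these cells in the changes against naive was not tested.

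CXCR5, the receptor for CXCL13, leads B cells and some T cells to B cell follicles. Cxcr5 was at 13.9, 11.4 and 16.7 CPM in naive libraries. It was at 29.8, 108, 68.8 and 64.5 CPM in CD45RBhi replicates 1 to 4 and at 67.5, 123, 76.4 and 79.3 CPM in CD45RBlo replicates 1 to 4. All memory libraries lay above the naive ones, with replicate 1 of CD45RBhi well below the other memory libraries. The rise was 4.84-fold in CD45RBhi (log2 fold change 2.27 ± 0.361, adjusted p = 0.000261) and 6.18-fold in CD45RBlo (2.63 ± 0.366, adjusted p = 8.29e-05). Of 12 B cell markers, 10 were tested, of which 8 fell in CD45RBhi and 9 in CD45RBlo, and Cd22 rose in both. Without Ighm they summed to 69.9 to 83.4 CPM in naive libraries, 11.7 to 25.4 CPM in CD45RBhi and 16.6 to 24.4 CPM in CD45RBlo, and Pax5 had 0 counts in every memory library. With Ighm, the sum was highest in replicate 2 of each memory group (499 and 437 CPM), as Cxcr5 was. Ighm alone reached 480 CPM in CD45RBhi and 414 CPM in CD45RBlo. Without Ighm the sum was highest in replicate 1 of each memory group, where Cxcr5 was lowest. Cd22, the marker that rose, averaged 1.88 CPM in naive, 7.93 CPM in CD45RBhi and 13.9 CPM in CD45RBlo, where it reached 18.5 CPM. The sum without Ighm in CD45RBlo was therefore mostly Cd22, and its order there need not be that of the markers that fell. The part of B cells in the Cxcr5 values was not tested. Cxcr5 shares 3.30% of its exon bases with Bcl9l on the opposite strand.

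CCR6, the receptor for CCL20, is known from B cells, Th17 cells and mucosal T cells. Ccr6 was the lowest member in memory libraries beside Ccr9. It had 1, 7 and 0 counts in naive libraries, 7, 64, 38 and 12 counts in CD45RBhi replicates 1 to 4, and 50, 147, 199 and 112 counts in CD45RBlo replicates 1 to 4. In CPM the CD45RBhi libraries held 0.351, 2.78, 1.89 and 0.628 and the CD45RBlo libraries 2.83, 7.12, 10.6 and 5.16, so the memory groups did not overlap. Against naive it rose 46.8-fold in CD45RBlo (log2 fold change 5.55 ± 0.94, adjusted p = 0.000406). In CD45RBhi the log2 fold change was 3.38 ± 0.964 (adjusted p = 0.0132), with 1 CD45RBhi library below the highest naive one. With so few naive counts the call in CD45RBhi rested on single libraries: adjusted p was 0.0587 without naive replicate 1 and 0.0525 without naive replicate 3, and without naive replicate 2, which held 7 of the counts, the log2 fold change was 5.59 in CD45RBhi and 7.76 in CD45RBlo.

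CXCR4 binds CXCL12 and retains cells in bone marrow. Cxcr4 was the only member that did not pass against naive in either memory group. It was at 21.1, 16.1 and 18.2 CPM in naive, 24.1, 11.4, 19.1 and 21.7 CPM in CD45RBhi and 18.4, 14.9, 19.0 and 20.6 CPM in CD45RBlo libraries, in the order of their numbers. All 3 groups overlapped. The 95% confidence interval of the log2 fold change ran from -0.42 to 0.51 in CD45RBhi and from -0.49 to 0.45 in CD45RBlo. With library size only as scaling, the sign in CD45RBhi turned (-0.11, adjusted p = 0.701).

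**Figure D1:**
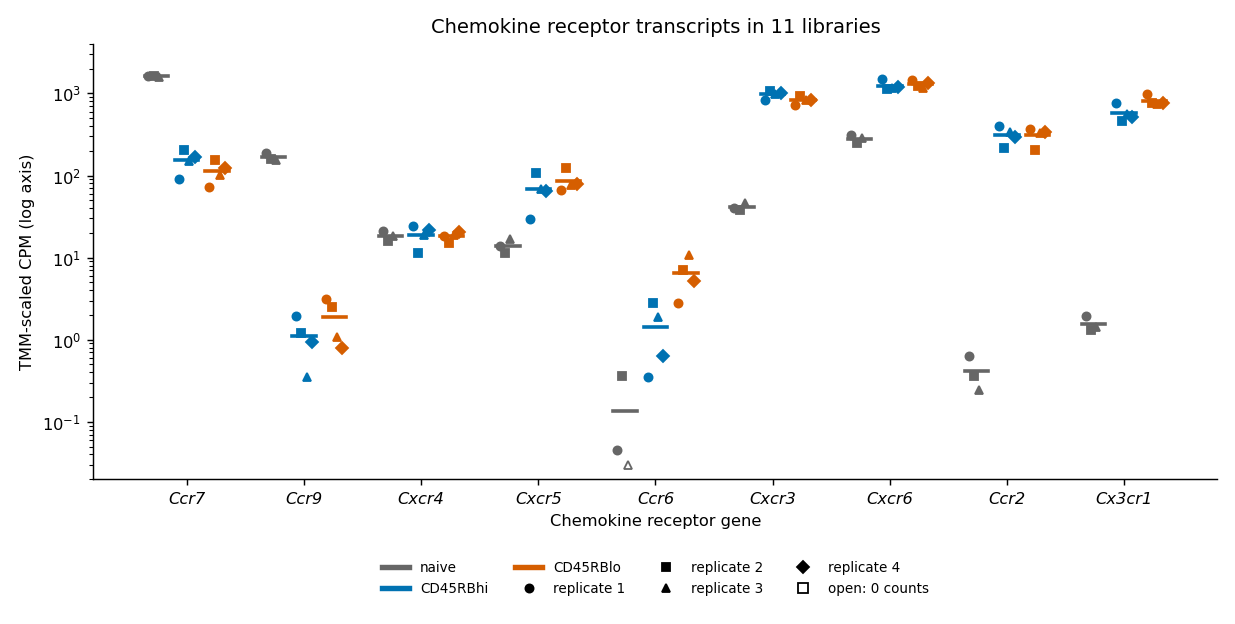
Level of each of the 9 receptor genes in every library, in TMM-scaled CPM on a log axis. Colour gives the group, symbol the replicate number, the line the group mean, and the open symbol at the bottom a count of 0. Ccr7 and Ccr9 are highest in naive libraries, Ccr2 and Cx3cr1 go from at most 1.92 CPM in naive to at least 204 CPM in memory libraries, and Cxcr4 averages near 18 to 19 CPM in all 3 groups.

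Against naive cells, 8 of the 9 receptors passed in CD45RBhi, 6 higher and 2 lower, where 41.5% of all genes tested passed (22.3% higher, 19.1% lower). In CD45RBlo the count was also 8, 6 higher and 2 lower, where 42.2% of all genes passed (22.4% higher, 19.8% lower). Memory and naive libraries did not overlap for 7 receptors in CD45RBhi, 5 higher and 2 lower, which held for 47.4% of all genes (24.1% higher, 23.3% lower). In CD45RBlo they did not overlap for 8, 6 higher and 2 lower, which held for 49.6% (25.2% higher, 24.3% lower). The median log2 fold change of the 9 was 2.27 and 2.63, against -0.01 for all genes in both comparisons. The 2 comparisons share the naive libraries. Small changes depend on the scaling: with library size only, the median of all genes against naive moved to -0.16 in CD45RBhi and -0.14 in CD45RBlo, and genes called went from 3064 higher and 2630 lower to 2301 and 3724 in CD45RBhi, and from 3072 and 2722 to 2356 and 3609 in CD45RBlo.

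**Figure D2:**
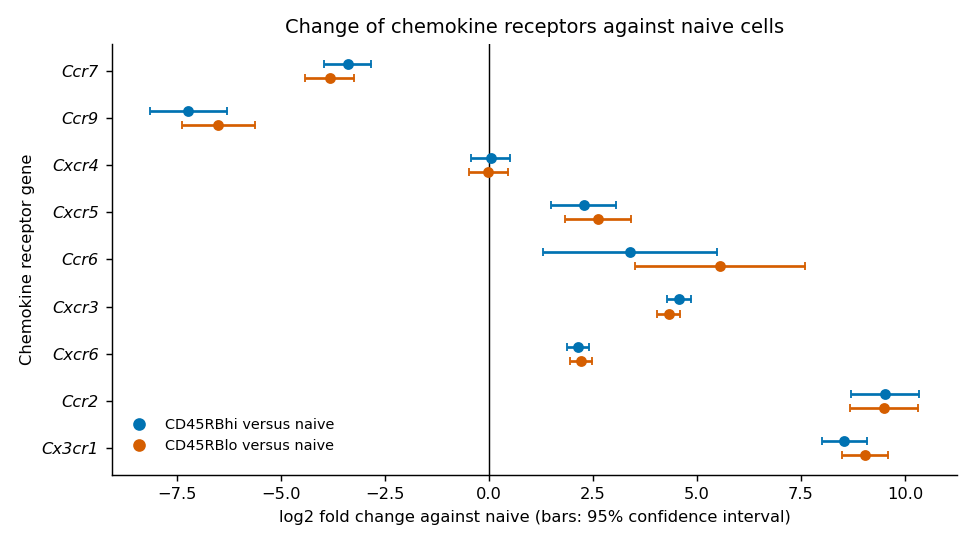
Log2 fold change of each receptor against naive libraries in CD45RBhi (blue) and CD45RBlo (orange), with 95% confidence intervals from edgeR's quasi-likelihood fit of 11 libraries. Intervals of Ccr7 and Ccr9 lie below 0, those of Cxcr4 span 0, and those of the other 6 genes lie above 0, with the widest for Ccr6.

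Dividing CPM by annotated exon length allows levels of different genes to be ranked. In naive libraries Ccr7 led with 822 ± 16.3 CPM per kilobase (SD, n = 3), followed by Cxcr6 (146 ± 16.4), Cxcr3 (24.0 ± 2.64), Ccr9 (16.4 ± 1.90), Cxcr4 (10.2 ± 1.38) and Cxcr5 (4.2 ± 0.793). Cx3cr1 (0.344), Ccr2 (0.0616) and Ccr6 (0.0587) came last, and of all neighbours in this order the ranges overlapped between Ccr2 and Ccr6 alone. In CD45RBhi libraries the order per length was Cxcr6 (646 ± 87.4, n = 4), Cxcr3 (567 ± 57.9), Cx3cr1 (129 ± 29.3), Ccr7 (77.8 ± 24.0), Ccr2 (46.4 ± 11.2), Cxcr5 (20.3 ± 9.57), Cxcr4 (10.6 ± 3.04), Ccr6 (0.608 ± 0.487) and Ccr9 (0.109 ± 0.065). Ranges overlapped there between Cxcr6 and Cxcr3, Ccr7 and Ccr2, Cxcr5 and Cxcr4, and Ccr6 and Ccr9. CD45RBlo libraries had the same order, with Cxcr6 at 672 ± 66.2, Cxcr3 at 479 ± 48.9, Cx3cr1 at 182 ± 25.3, Ccr7 at 57.6 ± 17.5 and Ccr6 at 2.77 ± 1.42, and overlaps of Ccr2 with Ccr7 and with Cxcr5. Exon lengths, such as 10.26 kb for Ccr9 and 6.76 kb for Ccr2, count every annotated exon, so genes with rarely used exons rank too low.

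Summed per length, the 9 receptors came to 1023 ± 21.2 CPM per kilobase in naive cells, 1497 ± 43.9 in the CD45RBhi group and 1474 ± 55.3 in the CD45RBlo group. Ccr7 made up 80.3% ± 1.74 of that sum in naive libraries, 5.22% ± 1.69 in CD45RBhi and 3.91% ± 1.15 in CD45RBlo. Cxcr6 went from 14.2% ± 1.40 to 43.0% ± 4.57 and 45.5% ± 3.35, and Cxcr3 from 2.35% ± 0.283 to 38.0% ± 4.67 and 32.5% ± 3.70. The receptor transcripts of naive cells were thus mostly Ccr7, and those of both memory groups mostly Cxcr6 and Cxcr3. Cx3cr1 held 8.57% ± 1.72 in CD45RBhi and 12.3% ± 1.48 in CD45RBlo libraries.

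**Figure D3:**
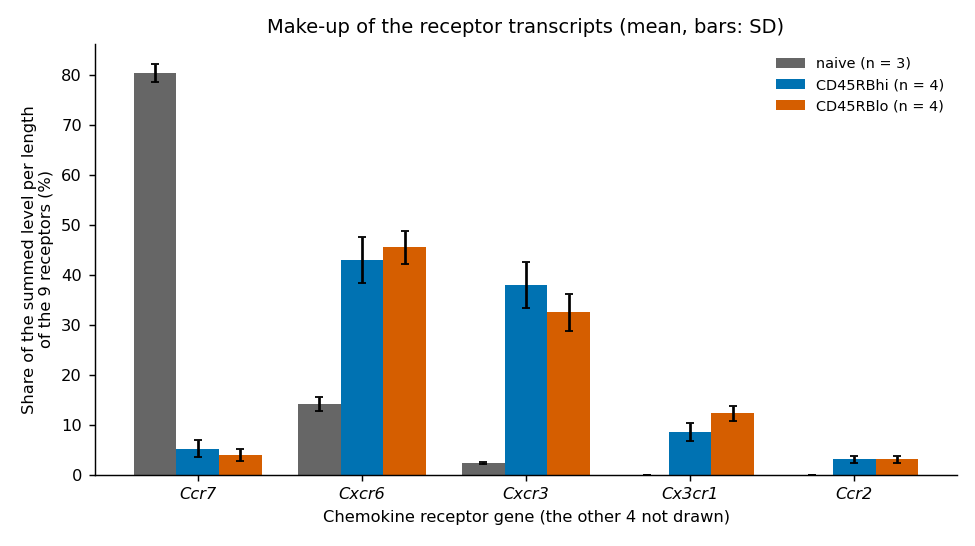
Share of the summed level per length of the 9 receptors held by the 5 genes with the largest shares in memory libraries, as the mean over libraries with SD bars (n = 3 naive, n = 4 CD45RBhi, n = 4 CD45RBlo). The bar of Ccr7 is the tallest in naive libraries (80.3%), and Cxcr6 and Cxcr3 are the tallest in both memory groups.

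The comparison of CD45RBhi with CD45RBlo asks whether memory cells that differ in CD45RB carry different receptors. Fitted without regard to replicate numbers, 0 of the 9 receptors passed by edgeR, where 0.124% of all genes did (0.0801% higher and 0.0437% lower in CD45RBhi). Unadjusted p was under 0.05 for 3 of them: Ccr6 (0.0044), Cx3cr1 (0.00521) and Cxcr3 (0.029), as it was for 1236 of the 13735 genes tested, and DESeq2 called 0 of the 9 as well. Same-numbered CD45RBhi and CD45RBlo libraries deviated together from their group means across genes, so the fit with the number as a block is given beside it. In that fit 4 of 9 receptors passed, where 5.59% of all genes did (2.52% higher, 3.08% lower): Ccr7 and Cxcr3 were higher in CD45RBhi, and Cx3cr1 and Ccr6 were lower. CD45RBhi stood on the same side of CD45RBlo in 4 of 4 pairs for 5 receptors, the 4 called ones and Cxcr5, and 29.0% of all genes did so.

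Ccr7 was higher in CD45RBhi by 0.31, 0.40, 0.55 and 0.44 log2 units in pairs 1 to 4. The paired log2 fold change was 0.43 ± 0.061 (1.35-fold, adjusted p = 0.0024), and the unpaired one 0.43 ± 0.234 (adjusted p = 0.62). Within each memory group replicate 1 was the lowest and replicate 2 the highest, a spread that the paired fit takes up and the unpaired one does not. Cxcr3 was higher by 0.23, 0.22, 0.23 and 0.30 in pairs 1 to 4, with a paired log2 fold change of 0.25 ± 0.0458 (1.19-fold, adjusted p = 0.0106, 0.497 unpaired). This 1.19-fold difference did not pass without pair 3 (adjusted p = 0.0511) or pair 4 (adjusted p = 0.0645).

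Cx3cr1 was lower in CD45RBhi by pair, with log2 differences of -0.36, -0.72, -0.40 and -0.57. Its paired log2 fold change was -0.51 ± 0.0603 (1.42-fold lower, adjusted p = 0.00074, 0.322 unpaired). The highest CD45RBhi library, replicate 1, lay above 2 of the CD45RBlo libraries, but below CD45RBlo replicate 1. Ccr6 showed the widest gap between the memory groups, with log2 differences of -2.70, -1.33, -2.43 and -2.85 in pairs 1 to 4. The paired log2 fold change was -2.31 ± 0.292 (4.95-fold lower, adjusted p = 0.00115) and the unpaired one -2.17 ± 0.626 (adjusted p = 0.301). Ccr6 was the 1 receptor whose memory groups did not overlap, which held for 4.99% of all genes (2.68% higher, 2.31% lower). Ccr6, Ccr7 and Cx3cr1 passed the paired fit whichever pair was left out.

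The other 5 receptors did not pass with or without pairs. Cxcr5 had log2 differences of -1.18, -0.19, -0.15 and -0.30 in pairs 1 to 4 and a paired log2 fold change of -0.43 ± 0.134 (adjusted p = 0.0794), so pair 1 held most of it, and it passed without pair 2 (adjusted p = 0.0441). Ccr9 had -0.67, -0.97, -1.38 and 0.24, with a paired value of -0.74 ± 0.361 (adjusted p = 0.259) at 0.348 to 3.17 CPM per library. Ccr2 (0.02), Cxcr4 (0.03) and Cxcr6 (-0.06) had paired 95% confidence intervals of -0.11 to 0.16, -0.24 to 0.30 and -0.16 to 0.05 log2 units. A 2-fold difference lay outside each of these intervals.

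**Figure D4:**
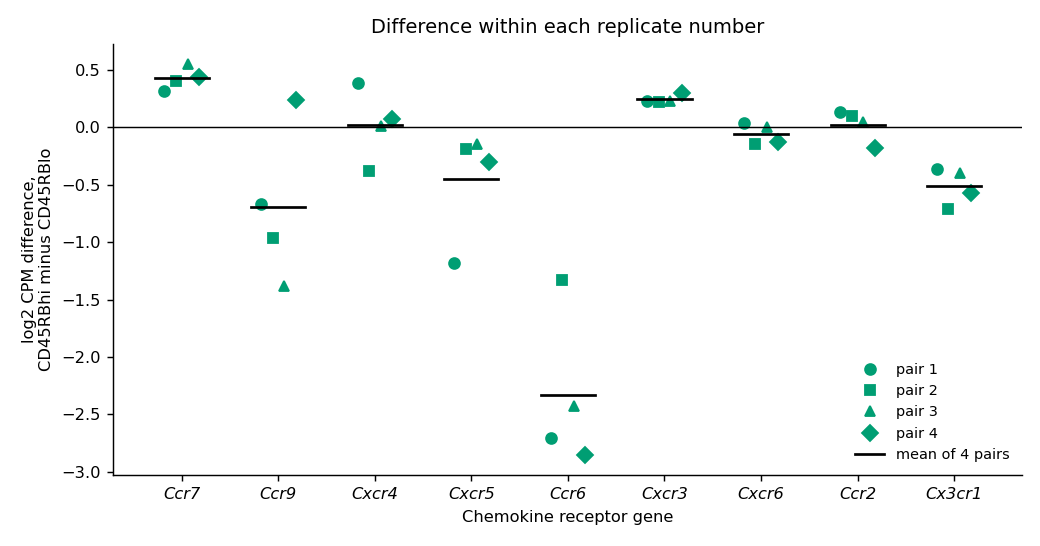
Difference in log2 CPM (prior count 2) between the CD45RBhi and the CD45RBlo library of the same replicate number, for each receptor, with 1 symbol per pair and a line at the mean of the 4 pairs. Ccr7 and Cxcr3 lie above 0 in 4 of 4 pairs, Cxcr5, Ccr6 and Cx3cr1 below 0 in 4 of 4 pairs, and the symbols of Ccr9, Cxcr4, Cxcr6 and Ccr2 fall on both sides.

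The replicate numbers also ordered the receptors within the memory groups. In both groups Ccr7, Cxcr3 and Cxcr5 were lowest in replicate 1 and highest in replicate 2, whereas Ccr2 was highest in replicate 1 and lowest in replicate 2. Cx3cr1 and Cxcr6 were highest in replicate 1 of both groups. Over the 4 CD45RBhi libraries the coefficient of variation was 47.1% for Cxcr5, 30.9% for Ccr7, 24.2% for Ccr2, 22.8% for Cx3cr1, 13.5% for Cxcr6 and 10.2% for Cxcr3. What the numbers stand for (an animal, a sort or a day) is not stated.

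Of the 9 receptor genes, 5 lie on chromosome 9 of GRCm38. Ccr9 (ENSMUSG00000029530, 123678439 to 123784330, plus strand), Cxcr6 (ENSMUSG00000048521, 123806475 to 123811760, plus strand) and Ccr2 (ENSMUSG00000049103, 124101950 to 124113557, plus strand) belong to a cluster of chemokine receptor genes. Ccr9 and Cxcr6 are 22.1 kb apart, and against naive cells Ccr9 fell while Cxcr6 rose. Cxcr6 lies inside Fyco1, which is on the opposite strand, with no shared exon base. Between Cxcr6 and Ccr2, Xcr1 rose, Ccr1 and Ccr1l1 had at most 6 counts in any library, and Ccr3, named for its place, had group means of 1.06 to 1.45 CPM (adjusted p = 0.68 and 0.609 against naive). Neighbours in this cluster thus differed in direction. Cx3cr1 (ENSMUSG00000052336, 119901616 to 120069879, minus strand) and Cxcr5 (ENSMUSG00000047880, 44511787 to 44561877, minus strand) are elsewhere on chromosome 9. Ccr6 (ENSMUSG00000040899) is on chromosome 17 from 8236043 to 8257141, Ccr7 (ENSMUSG00000037944) on chromosome 11 from 99144196 to 99155077, Cxcr3 (ENSMUSG00000050232) on chromosome X from 101731535 to 101734269 and Cxcr4 (ENSMUSG00000045382) on chromosome 1 from 128588199 to 128592293.

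The promoters of these 3 clustered receptor genes and of Cx3cr1 are shown to set neighbours that changed in opposite directions beside each other, and because Ccr9, Ccr2 and Cx3cr1 had the largest changes against naive. They are windows from 250 bases before to 50 after a RefSeq start on GRCm38.p6, written along the gene, and 7 of the 9 members matched an entry, with 8 windows. Capitals mark matches to motifs known for factors of CD8 T cells, searched on both strands, so that a match on the other strand shows the complementary letters in reverse: TCACACC (T-box), CTTTGA (TCF/LEF), TGTGGT (RUNX), AGGAAG (ETS), CCACACCC (KLF) and CAGGTG (an E-box bound by ZEB factors). The T-box and KLF motifs share letters and can overlap.
Ccr9, chr9:123766961-123767260, plus strand: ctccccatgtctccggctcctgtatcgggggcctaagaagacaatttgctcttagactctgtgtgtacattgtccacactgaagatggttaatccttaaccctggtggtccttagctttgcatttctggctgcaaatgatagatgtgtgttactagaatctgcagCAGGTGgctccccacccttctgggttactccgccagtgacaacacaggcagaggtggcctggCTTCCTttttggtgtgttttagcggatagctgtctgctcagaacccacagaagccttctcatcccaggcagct
Cxcr6, chr9:123806227-123806526, plus strand: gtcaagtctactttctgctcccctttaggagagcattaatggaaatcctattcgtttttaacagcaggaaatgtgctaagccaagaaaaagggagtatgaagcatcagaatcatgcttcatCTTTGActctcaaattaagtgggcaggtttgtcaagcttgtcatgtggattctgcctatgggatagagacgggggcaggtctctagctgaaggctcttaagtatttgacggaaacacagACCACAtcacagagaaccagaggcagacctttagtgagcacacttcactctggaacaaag
Ccr2, chr9:124101933-124102232, plus strand: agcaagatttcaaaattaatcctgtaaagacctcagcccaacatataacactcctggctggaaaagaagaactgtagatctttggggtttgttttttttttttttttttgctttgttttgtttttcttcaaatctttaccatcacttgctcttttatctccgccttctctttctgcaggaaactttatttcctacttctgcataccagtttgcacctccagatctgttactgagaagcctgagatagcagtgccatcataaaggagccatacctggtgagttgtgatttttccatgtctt
Cx3cr1, chr9:120068247-120068546, minus strand: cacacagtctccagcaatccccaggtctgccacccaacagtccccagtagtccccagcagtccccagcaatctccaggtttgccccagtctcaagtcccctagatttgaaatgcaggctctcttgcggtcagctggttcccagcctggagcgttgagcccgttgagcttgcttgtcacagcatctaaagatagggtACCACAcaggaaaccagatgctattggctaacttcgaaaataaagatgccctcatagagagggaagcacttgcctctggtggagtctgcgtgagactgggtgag

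The Ccr9 window, of the gene that fell, holds the E-box letters at position 166 and the ETS letters, on the other strand, at position 228, counted from the 5′ end of the window. Neither is particular to it. Among windows not shown, that of Cxcr3, which rose, holds both, and a window of Ccr6, which also rose, holds the ETS letters. The Cxcr6 window holds the TCF/LEF letters at position 122 and the RUNX letters, on the other strand, at position 241. The Cx3cr1 window holds the RUNX letters on the other strand at position 197, and the Ccr2 window holds none of the 6 motifs. Of 32851 promoter windows of this length, 16.8% hold the RUNX, 35.4% the ETS, 20.2% the E-box and 16% the TCF/LEF letters. The T-box letters (3.98%) and the KLF letters (3.56%) were in none of the 8 windows. These matches are letters in a window and no measure of binding.

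Among 16 further chemokine receptors and relatives, 7 were tested and the others had at most 13 counts in any library. Against naive, 4 of the 7 rose in CD45RBhi, where 22.3% of all genes tested rose and 19.1% fell. In CD45RBlo 4 were higher and 1 lower, where 22.4% of all genes rose and 19.8% fell. Ccrl2, which binds chemerin without signalling, rose by 4.36 and 4.67 log2 units, Xcr1, the receptor for XCL1, by 2.82 and 3.11, and the chemerin receptor Cmklr1 by 4.32 and 5.37, all to group means under 10 CPM. Ackr4, a scavenger of CCL19, CCL21 and CCL25, fell in CD45RBlo (-3.21, adjusted p = 0.0389) from 10 to 22 counts per naive library to 0 to 4. It had 20 counts in CD45RBhi replicate 1 and at most 2 in the other CD45RBhi libraries (adjusted p = 0.292). Between the memory groups 0 of these passed by edgeR with or without pairs, and unadjusted p was under 0.05 for Cmklr1 (0.0382 unpaired, 0.00364 paired). Of the 50-base stretches of Ccr2 transcripts, 1.91% recur in transcripts of other genes.

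Transcripts of the ligands of these receptors were at or near 0 for most genes. Of 14 ligand genes, 8 had 0 counts in all 11 libraries, among them Ccl19, Ccl21a, Ccl20, Cxcl11 and Cx3cl1, and 3 were tested. Cxcl16, the ligand of CXCR6, averaged 0.938 CPM in naive cells, and 0.304 and 0.298 CPM in CD45RBhi and CD45RBlo (log2 fold changes -1.63 and -1.65, adjusted p = 0.035 and 0.0338). Cxcl10, a ligand of CXCR3, averaged 1.26 CPM in naive cells and 2.90 CPM in CD45RBlo (log2 fold change 1.20, adjusted p = 0.0231), with 1.77 CPM in CD45RBhi (adjusted p = 0.341). The other gene tested, Ccl25, did not pass in either group.

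Genes that carry the signal of these receptors inside the cell, or end it, moved in both directions. Of 44 entries, 41 are names in the table (Grk2 and Grk3 stand there under older names) and 39 were tested. Against naive 16 rose and 6 fell in CD45RBhi, where 22.3% of all genes rose and 19.1% fell, and 16 and 6 in CD45RBlo, where 22.4% rose and 19.8% fell. Gng2, a G protein gamma subunit, rose from 24.6 ± 1.25 CPM to 83.0 ± 13.0 and 82.4 ± 12.5 (log2 fold changes 1.76 and 1.75), and Rac2, a GTPase of leukocyte migration, from 2113 ± 28.2 to 3551 ± 133 and 3357 ± 165 CPM (0.75 and 0.67). Rhoh, a GTPase without enzyme activity, fell from 560 ± 19.0 to 280 ± 4.96 and 269 ± 22.7 CPM (-1.002 and -1.06), and the phospholipase Plcb2 from 99.9 ± 3.39 to 29.2 ± 3.87 and 28.8 ± 5.61 CPM (-1.78 and -1.80). The median of the 39 was 0.25 in CD45RBhi and 0.24 in CD45RBlo, against -0.01 for all genes. Between the memory groups 0 of 39 passed unpaired by edgeR, with an unadjusted p under 0.05 for 5 (1236 of 13735 over all genes), and with pairs 4 of 38 did, all lower in CD45RBhi: Rasgrp2, an activator of the integrin switch RAP1 (-0.41, adjusted p = 0.00192), Prex1 (-0.42, adjusted p = 0.0202), Jak2 (-0.27, adjusted p = 0.0226) and Pik3r5, the adaptor of PI3K gamma (-0.22, adjusted p = 0.0341). Each was lower in 4 of 4 pairs, and the share of 4 in 38 is to be read beside the 3.08% of all genes that were lower in that fit.

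Genes with patterns most like each receptor were found by Pearson r of log2 CPM over the 8001 or 8002 named genes of at least 10 CPM. Across 11 libraries, which share the split of naive from memory, the closest gene was Tmem151a for Cx3cr1 (r = 0.999), with Klrg1 and S1pr5 next, Klrc1 for Ccr2 (0.999), Asns for Cxcr3 (0.999), Entpd1 for Cxcr6 (0.997), Rgs10 for Ccr7 (0.995), Lsp1 for Cxcr5 (0.985), Il21r for Ccr9 (0.984), Net1 for Cxcr4 (0.961) and Apbb1 for Ccr6 (0.96). Across the 8 memory libraries, which share replicate numbers, it was Acp5 for Ccr7 (0.997), with Pomk and Crtam next, Mylip for Cx3cr1 (0.978), with Gzma next, Ccnc for Ccr2 (0.990), Gstt2 for Cxcr3 (0.987), Fbxl2 for Ccr6 (0.983), Clasp2 for Cxcr4 (0.982), Dnttip1 for Cxcr5 (0.975), Xylt1 for Cxcr6 (0.972) and Faap100 for Ccr9 (0.905). These are the highest values of many over few libraries and are given as a description.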

How the data were processed

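RNA of 11 libraries (3 naive, 4 CD45RBhi, 4 CD45RBlo) was sequenced. The authors deposited 1 table of raw read counts per Ensembl gene, with 1 column per library, per the file headers. Per the submitters' processing notes, the tools included featureCounts, SAMtools and DESeq2, on builds GRCm38 and mm10. The sources used here do not give an aligner, annotation release or strandedness. Groups came from sample titles. Genes were kept by filterByExpr (minimum count 10) and scaled by TMM, and group means of all 11 libraries were fitted in edgeR 4.0.16 (R 4.3.3). Groups were compared with the two-sided quasi-likelihood F test, Benjamini-Hochberg adjusted over 13735 genes, at a threshold of 0.05. SE is the log2 fold change divided by the square root of F. The method was tested on simulated data.

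Among 15 pairs of replicate libraries 0 were identical, and chi-square per degree of freedom was 9.43 to 84.7. Deviations from group means of same-numbered CD45RBhi and CD45RBlo libraries correlated at 0.191 to 0.452 across genes, and those of other numbers at most at 0.0284, so the 8 memory libraries were also fitted with that number as a block (12637 genes). The pairing comes from the data, not from the labels. Naive libraries were not paired (same numbers -0.101 to 0.0565). Alternatives were other scaling, filters, DESeq2 1.42.0, fewer groups and leaving out each library or pair. Positions, exon lengths and transcripts came from GENCODE M21, which holds 52489 of 52636 identifiers and need not be the annotation counted on, and promoters from RefSeq. The receptors, the gene lists and the rule for named genes (all 9 receptors, every further receptor called, up to 4 signalling genes per comparison by p, and for each receptor the 3 closest genes by r, of which the closest is given for each) were chosen with earlier results of these data known. Sums of marker lists without Ighm or Ly6c2, single markers of other cell types and genes named for their position were added after the values were seen. Values of 2 genes on these lists are not reported here.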

Additional observations from a re-analysis of the deposited data

Results flagged for a closer look

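Cx3cr1 in CD45RBlo replicate 1, at 988 CPM, stood apart from the other CD45RBlo libraries (743 to 774 CPM): its gap to the nearest, divided by the range of the group, was 0.871, above the critical value of 0.829 for 4 samples. It was the 1 such case among 18 groups of 4 libraries, and chance gives about 1 in 20. Same-numbered CD45RBhi replicate 1 was also the highest of its group, at 769 CPM. Without CD45RBlo replicate 1 the unpaired log2 difference of CD45RBhi from CD45RBlo was -0.39 (adjusted p = 0.406), and without pair 1 the paired one was -0.56 (adjusted p = 0.0033).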

How the results depend on the processing

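Against naive, 8 receptors passed in CD45RBlo under each of 14 alternatives, and 7 to 8 in CD45RBhi, where Ccr6 was the exception. Genes called in CD45RBhi against naive numbered 5694, and 3786 with the replicate block, whose numbers do not pair memory with naive libraries. With library size only, the split of all genes called changed from 3064 higher and 2630 lower to 2301 and 3724 in CD45RBhi, and from 3072 and 2722 to 2356 and 3609 in CD45RBlo. Between the memory groups 17 genes passed, 144 by DESeq2, 4 with only these groups in the fit and 707 with the replicate block. The count was 6 to 15 without single libraries and 344, 667, 167 and 300 in the paired fit without pairs 1 to 4. Receptors called there went from 0 to 4 with the replicate block (3 to 5 without single pairs, 0 without single libraries). The block changed no other call of a receptor.

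Signs turned only for log2 fold changes of receptors that did not pass in that comparison. Between the memory groups, values without single libraries ran from -0.13 to 0.16 for Ccr2, from -0.069 to 0.25 for Cxcr4 and from -0.16 to 0.0041 for Cxcr6. Ccr2 was negative without CD45RBhi replicate 1 (-0.11), CD45RBhi replicate 3 (-0.02) or CD45RBlo replicate 2 (-0.13), and in the paired fit without pair 1 (-0.0094) or 2 (-0.00295). Cxcr4 was negative without CD45RBhi replicate 1, CD45RBhi replicate 4 (-0.0048) or CD45RBlo replicate 2 (-0.02), and in the paired fit without pair 1 (-0.091). Against naive, Cxcr4 in CD45RBhi was -0.11 with library size only and -0.083 with the replicate block, and -0.091 to 0.23 without single libraries, negative without naive replicate 2 (-0.04) and CD45RBhi replicates 1 and 4 (-0.02). In CD45RBlo it was 0.089 and 0.06 without naive replicate 1 and CD45RBlo replicate 2. The cause was not tested. Counts limit Ccr6 and Ccr9: 1 count is 0.0434 to 0.0566 CPM.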
